A study of Mus musculus with 2 samples.

Results

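The 8 genes described here encode the coat of caveolae and the ATPase at their neck. They are the caveolin genes Cav1, Cav2 and Cav3, the cavin genes Cavin1, Cavin2, Cavin3 and Cavin4, and Ehd2. They were chosen by name for their function and not for any measured level, and were found by symbol among the 55536 genes of the deposited gene tables. The tables hold total RNA-seq of whole heart from male B6CASTF1/J mice, an F1 hybrid, at 25 days of age, with 300 ng of RNA per library. There were 2 libraries, numbered as biological replicates 1 and 2. They are labelled as animals 03 and 04 of a tissue bank, but carry 1 donor identifier between them. It is therefore not certain from the labels whether they are 2 animals or how the animals are related. They were treated here as 2 animals. No treatment, engineered allele, second genotype, other tissue or other age was part of the design, so the spread given here is that between the 2 hearts.

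Caveolae are flask-shaped pits of the plasma membrane that buffer membrane tension and gather signalling proteins, and they are abundant in endothelial cells, smooth muscle, adipocytes and striated muscle. Caveolins are hairpin membrane proteins that build the coat, with CAV1 as its core outside striated muscle, CAV2 as a partner of CAV1 and CAV3 as the muscle form. Cavins are cytosolic coiled-coil proteins that stabilise the pit: CAVIN1 is required for caveolae, CAVIN2 and CAVIN3 join it in varied proportions by tissue, and CAVIN4 is the muscle form. EHD2 forms rings of ATPase at the neck and holds caveolae at the surface.

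All coordinates are those of mm10 with the GENCODE M21 annotation. Of the 8 genes, 3 lie on chromosome 6. Cav2 (ENSMUSG00000000058.6) spans chr6:17281185-17289115 on the plus strand, and Cav1 (ENSMUSG00000007655.16) follows on the same strand at chr6:17306335-17341452, with 17219 bases between them. Cav3 (ENSMUSG00000062694.7) lies 95.1 Mb from Cav1, at chr6:112459505-112472872 on the plus strand. Cavin1 (ENSMUSG00000004044.9) lies at chr11:100956733-100970887 on the minus strand, Cavin2 (ENSMUSG00000045954.7) at chr1:51289126-51302960 on the plus strand, and Cavin3 (ENSMUSG00000037060.3) at chr7:105480083-105482300 on the minus strand. Cavin4 (ENSMUSG00000028348.7) lies at chr4:48663514-48673502 on the plus strand, and Ehd2 (ENSMUSG00000074364.6) at chr7:15946958-15967567 on the minus strand.

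The caveolin genes resemble each other in sequence, which bears on whether reads can be told apart. Aligned coding sequences of Cav3 and Cav1 were identical at 70.9% of columns (321 of 453), those of Cav1 and Cav2 at 57.0% (274 of 481), and those of Cav3 and Cav2 at 51.0% (229 of 449). The closest stretch of 60 coding bases shared 34 letters among all 3 genes. It lies in the part of the protein that carries the caveolin signature motif. It is printed with those letters in capitals, spliced across an exon junction (chr6:17308040-17339166 for Cav1, chr6:17281505-17281948 for Cav2 and chr6:112459920-112472190 for Cav3, plus strand).
Cav1: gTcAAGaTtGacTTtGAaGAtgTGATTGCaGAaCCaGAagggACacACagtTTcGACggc
Cav2: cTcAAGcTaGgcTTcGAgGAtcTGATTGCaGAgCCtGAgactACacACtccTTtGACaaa
Cav3: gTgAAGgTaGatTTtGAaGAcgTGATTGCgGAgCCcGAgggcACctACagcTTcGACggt

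Identical runs between caveolins were short. The longest was 15 bases for Cav3 and Cav1, 12 for Cav1 and Cav2, and 9 for Cav3 and Cav2. None of the 8 genes shared a 31-base word with another of the 8, and 6 of them shared none with any annotated gene on either strand. Ehd2 shared 32 of 5116 words (0.625%), each with 1 or more of 900 other genes, and its longest shared run was 49 bases. Cavin3 shared 344 of 1632 words (21.1%) with Gm45667, a gene model on the opposite strand that had 2 counts in replicate 1 and 3 in replicate 2. Antisense models also overlap the span of Cavin2 (9330175M20Rik, 3 counts in replicate 1 and 2 in replicate 2) and those of Cav1 and Cav2 (Gm15581, 0 counts in both hearts). Cav1, Cav2 and Cavin2 shared no 31-base word with these models. Whether the counting used the strand of reads is not given in the sources used here. Reads of the words shared by Cavin3 and Gm45667 therefore cannot be assigned with certainty.

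Cav1 makes a long and a short protein from a pair of start codons, known as the alpha and beta forms. The coding sequence of transcript Cav1-201 is shown from its first ATG to the internal one, both in capitals (chr6:17306450-17307946, plus strand). It is spliced from 30 bases of exon 1, which ends at 17306479, to exon 2, which begins at 17307881.
Cav1-201: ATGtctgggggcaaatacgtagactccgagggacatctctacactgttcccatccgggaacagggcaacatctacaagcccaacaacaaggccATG

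The internal ATG is codon 32 of this frame, so 31 codons separate the start codons. Transcripts Cav1-201 and Cav1-205 begin upstream of the first ATG and encode the full frame of 178 codons (534 bases without the stop codon). Transcripts Cav1-202 and Cav1-203 begin downstream of it, in the first intron of Cav1-201, and hold only the short frame of 147 codons (441 bases). The RefSeq promoter table (GRCm38.p6) holds windows for the starts of Cav1-201 and Cav1-202. The 250 bases before each are shown because the division of Cav1 between them is measured further on. Capitals mark matches to the E-box CANNTG and to the TATA box TATAAA, searched on both strands.
Cav1 upstream start (chr6:17306085-17306334, plus strand): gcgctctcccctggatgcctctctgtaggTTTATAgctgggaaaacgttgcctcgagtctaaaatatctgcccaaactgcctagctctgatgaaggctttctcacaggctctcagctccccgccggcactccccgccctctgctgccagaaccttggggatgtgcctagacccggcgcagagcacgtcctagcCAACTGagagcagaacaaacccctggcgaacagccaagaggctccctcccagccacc
Cav1 downstream start (chr6:17307390-17307639, plus strand): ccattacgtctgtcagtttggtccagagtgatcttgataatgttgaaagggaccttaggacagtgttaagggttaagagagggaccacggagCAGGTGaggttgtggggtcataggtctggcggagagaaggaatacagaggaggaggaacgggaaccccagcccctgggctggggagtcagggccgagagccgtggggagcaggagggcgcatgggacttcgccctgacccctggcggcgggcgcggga

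The upstream window held an E-box 57 bases before the start and a TATA box match on the reverse strand 221 bases before it. The downstream window held an E-box 158 bases before the start and no TATA box match. The GC content was 59.6% in the upstream window and 60.8% in the downstream one, with 10 and 12 CpG in the same order, against medians of 52.4% and 6 over all windows. The windows of the muscle forms Cav3 and Cavin4 are shown because their levels were close in each heart.
Cav3 (chr6:112459255-112459504, plus strand): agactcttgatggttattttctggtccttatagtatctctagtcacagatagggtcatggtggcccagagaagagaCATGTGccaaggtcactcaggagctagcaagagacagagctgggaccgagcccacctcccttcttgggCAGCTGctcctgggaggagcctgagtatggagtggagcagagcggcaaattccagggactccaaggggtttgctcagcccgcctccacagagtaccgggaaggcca
Cavin4 (chr4:48663264-48663513, plus strand): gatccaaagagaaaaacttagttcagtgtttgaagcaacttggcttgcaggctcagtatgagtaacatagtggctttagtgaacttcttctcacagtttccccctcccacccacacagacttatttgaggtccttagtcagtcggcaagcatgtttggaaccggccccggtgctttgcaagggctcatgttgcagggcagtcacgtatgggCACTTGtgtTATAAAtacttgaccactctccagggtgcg

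The Cav3 window held E-boxes 174 and 106 bases before the start. The Cavin4 window held an E-box 39 bases and a TATA box 30 bases before the start. Such matches are frequent: of 32851 windows of this length, 66.2% held an E-box and 12.4% a TATA box. A CCAAT box was found in 33.8%, a MEF2 site in 2.92% and a CArG box in 1.47% of all windows, and no window of the 7 genes in the table held a MEF2 site or a CArG box match. A match is a string of letters and not evidence of binding.

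The libraries held 38253821 (replicate 1) and 40655101 (replicate 2) estimated gene counts, of which mitochondrial genes took at most 31.7%. The heart muscle list was at the levels of a heart sample, from Ryr2, the calcium release channel gene, at 344 TPM to Myh6, the alpha myosin heavy chain gene, at 8557 TPM, and the 7 skeletal muscle genes summed to 2.98 TPM in replicate 1 and 3.33 TPM in replicate 2. Of these 7, 2 reached 1 TPM in both hearts, the highest being Tnni2, a fast troponin I gene, at 1.21 and 1.57 TPM, while the lowest, Myh1, Myh2 and Myog, were listed at 0 in the first quantification. TPM is abundance per length, scaled to a fixed total over all genes of a library. Levels below are TPM of the first of a pair of quantifications that were deposited, as mean ± SD over the 2 hearts (n = 2), unless a heart is named. The bounds given after a level are the deposited interval of the estimate in that heart.

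All 8 genes were expressed. Each reached 1 TPM in both hearts, as did 49.5% of the 22015 nuclear protein-coding genes, and 7 of the 8 stood above 8.12 TPM, the median of the expressed coding genes, in both hearts. Their median was 39.1 TPM. Estimated counts per gene and heart lay between 411 and 11269, so counting error was small. With 2 hearts, an exact sign-flip test of any ratio has 0.5 as its smallest two-sided p, so levels and ratios are given with their spread and without p.

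Cav1, the core caveolin of endothelial, smooth muscle and fat cells, was the highest caveolin gene. It stood at 87.26 TPM in replicate 1 (83.4 to 92.7) and 86.54 TPM in replicate 2 (82.0 to 90.9), a mean of 86.9 ± 0.509. The hearts overlapped in their deposited intervals, and Cav1 ranked 576 among nuclear coding genes.

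Cav3, the caveolin of striated muscle, came next. It stood at 37.14 TPM in replicate 1 (34.5 to 38.4) and 43.02 TPM in replicate 2 (40.2 to 44.3), a mean of 40.1 ± 4.16 and rank 1238. Replicate 1 was lower, and the deposited intervals of the hearts did not overlap.

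Cav2, which needs CAV1 to reach the cell surface, was the lowest caveolin gene. It stood at 15.29 TPM in replicate 1 (14.3 to 17.1) and 18.29 TPM in replicate 2 (17.1 to 19.6), a mean of 16.8 ± 2.12 and rank 3056. Replicate 1 was again lower, and its SD relative to the mean, 12.6%, was the highest of the 8 genes.

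Of the cavin genes, Cavin1, without which caveolae do not form, was the highest, and it was the highest of all 8 genes. It stood at 90.56 TPM in replicate 1 (86.5 to 91.5) and 99.11 TPM in replicate 2 (95.01 to 99.99), a mean of 94.8 ± 6.05 and rank 523. Replicate 1 was lower.

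Cavin2, a cavin that shapes caveolae in some endothelia, stood at 49.88 TPM in replicate 1 (47.5 to 50.3) and 54.89 TPM in replicate 2 (52.5 to 55.3), a mean of 52.4 ± 3.54. Cavin4, the muscle cavin, stood at 34.80 TPM in replicate 1 (32.7 to 35.6) and 40.22 TPM in replicate 2 (38.0 to 40.9), a mean of 37.5 ± 3.83. Both were lower in replicate 1, with deposited intervals of the hearts that did not overlap.

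Cavin3, a cavin first described as a binding protein of protein kinase C delta, was the lowest of the 8 genes. It stood at 8.04 TPM in replicate 1 (7.14 to 8.65) and 8.15 TPM in replicate 2 (7.26 to 8.74), a mean of 8.10 ± 0.0778 and rank 5458. The hearts did not differ beyond the deposited intervals, and the level lies near the median of expressed coding genes.

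Ehd2, the neck ATPase, stood at 36.32 TPM in replicate 1 (32.7 to 39.1) and 40.06 TPM in replicate 2 (36.3 to 42.8), a mean of 38.2 ± 2.64. The hearts overlapped in their deposited intervals.

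**Figure D1:**
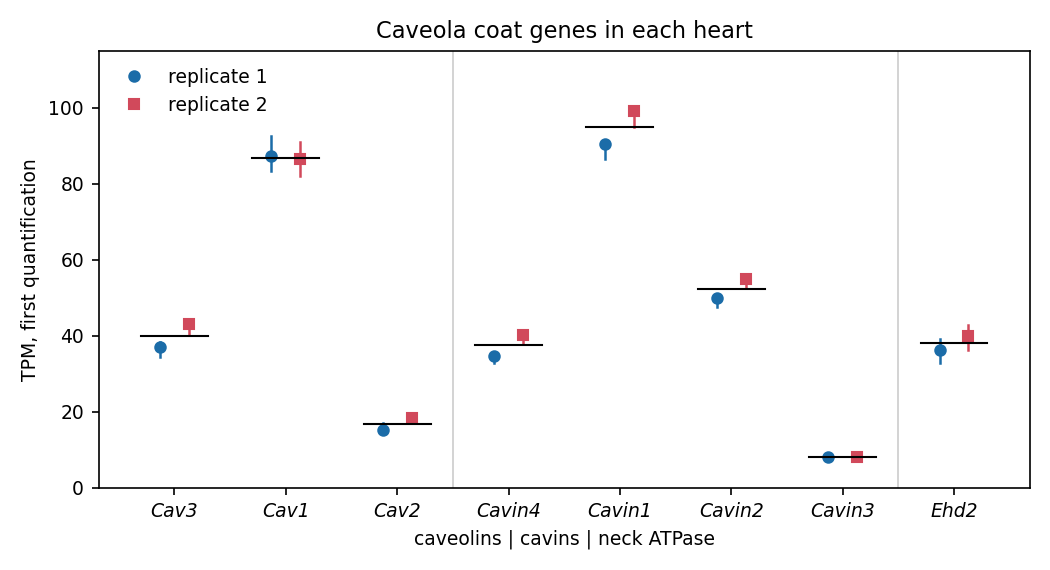
Levels of the 8 genes in each heart, in TPM of the first quantification, grouped as caveolins, cavins and the neck ATPase. Circles are replicate 1, squares replicate 2, vertical lines the deposited interval of the estimate and horizontal bars the mean; Cav1 (86.9) and Cavin1 (94.8) stand above the muscle forms Cav3 (40.1) and Cavin4 (37.5).

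The order by mean was Cavin1, Cav1, Cavin2, Cav3, Ehd2, Cavin4, Cav2 and Cavin3. Neighbours were taken to differ where both hearts of the upper gene lay above both of the lower one and the means differed by more than the sum of the SDs. By that rule Cav3 and Ehd2 did not differ beyond their spread, nor did Ehd2 and Cavin4, whose order changed between the hearts. The other neighbours did in the first quantification. The second quantification, made directly from reads, gave levels 1.01 to 1.36 times those of the first and the same order, except that Cavin4 (44.7) stood above Ehd2 (38.5).

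In both families the muscle form was lower than the broadly expressed lead form. The log2 ratio of Cav3 over Cav1 was -1.23 in replicate 1 and -1.01 in replicate 2 (mean -1.12 ± 0.16), so Cav1 was 2.17-fold above Cav3. The log2 ratio of Cavin4 over Cavin1 was -1.38 in replicate 1 and -1.30 in replicate 2 (mean -1.34 ± 0.06), so Cavin1 was 2.53-fold above Cavin4. Cavin4 was also below Cavin2, at -0.52 and -0.45 (mean -0.48 ± 0.05). Every one of these ratios lay below 0 in both hearts and both quantifications. Ratios are of TPM + 0.1.

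The muscle forms stood above the lower members of their families. The log2 ratio of Cav3 over Cav2 was 1.27 in replicate 1 and 1.23 in replicate 2 (mean 1.25 ± 0.03, 2.38-fold). That of Cavin4 over Cavin3 was 2.10 in replicate 1 and 2.29 in replicate 2 (mean 2.19 ± 0.13, 4.58-fold). In whole tissue, a gene expressed in fewer cells and one with less RNA per cell cannot be told apart, so the ratios do not give the caveolins of any 1 cell type.

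Cav3 and Cavin4, both muscle forms, were nearly level with each other, with a log2 ratio of 0.09 in replicate 1 and 0.10 in replicate 2. Cav1 and Cavin1, the core forms, had -0.05 in replicate 1 and -0.20 in replicate 2. Cavin1 over Cavin2 was 0.86 in replicate 1 and 0.85 in replicate 2, one of the ratios that varied least. Cav1 over its partner Cav2 was higher by a mean of 2.37 ± 0.19, and Cavin2 over Cavin3 was 2.62 in replicate 1 and 2.74 in replicate 2. The second quantification placed Cav3 over Cavin4 at a mean of 0.24, against 0.10 in the first.

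**Figure D2:**
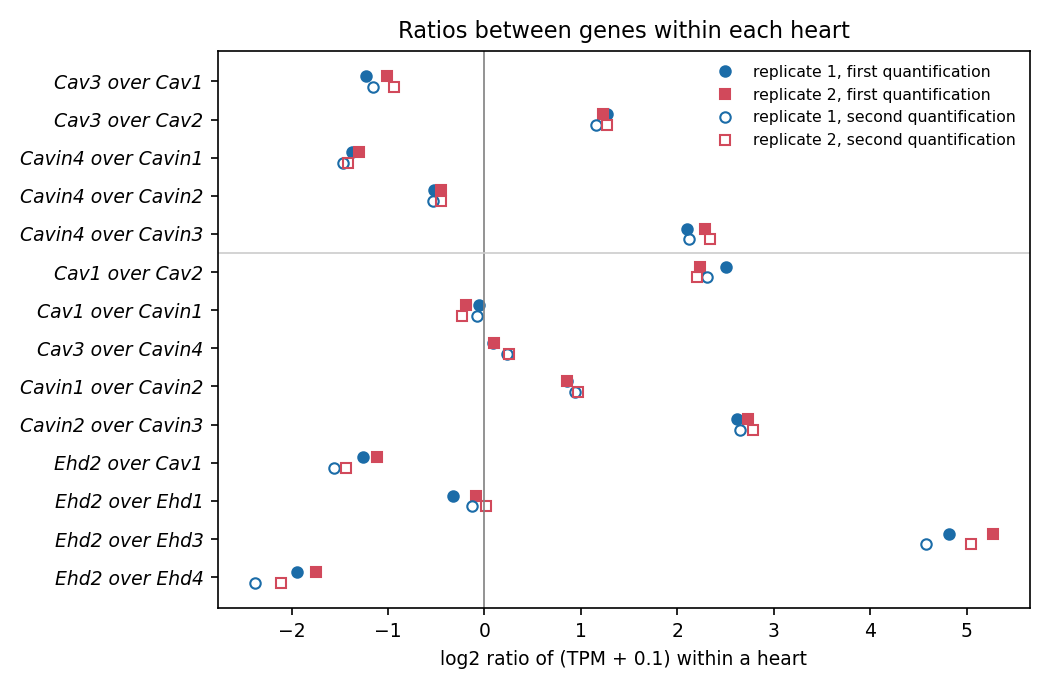
Log2 ratio of TPM + 0.1 between genes within each heart, for muscle over broad forms (above the line) and partner genes (under it). Filled symbols are the first quantification, open symbols the second, circles replicate 1 and squares replicate 2; Cav3 over Cav1 lies at -1.12 and Cavin4 over Cavin1 at -1.34 on average, and both lie left of 0 in each heart and quantification.

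As shares of summed TPM, Cav3 made up 26.6% of caveolin transcripts in replicate 1 and 29.1% in replicate 2 (27.8% ± 1.77). Cav1 made up 60.5% ± 2.78 and Cav2 11.7% ± 1.01. Among cavins, Cavin4 made up 19.0% in replicate 1 and 19.9% in replicate 2 (19.4% ± 0.627), Cavin1 49.2% ± 0.308, Cavin2 27.2% ± 0.0648 and Cavin3 4.21% ± 0.254.

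Cavin transcripts summed to 183.28 TPM in replicate 1 and 202.37 TPM in replicate 2, and caveolin transcripts to 139.69 and 147.85 TPM. The cavin sum over the caveolin sum was 1.31 in replicate 1 and 1.37 in replicate 2. Cav3 and Cavin4 together held 22.3% of the 7 caveolin and cavin genes in replicate 1 and 23.8% in replicate 2 (23.0% ± 1.06).

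Ehd2 was set beside its paralogs, the other EHD ATPases, which work mainly in endosomal recycling. Ehd4 was the highest of the 4 at 137 ± 3.46 TPM, Ehd1 stood at 44.0 ± 2.23 TPM, and Ehd3 at 1.19 TPM in replicate 1 and 0.94 TPM in replicate 2. Ehd2 held 17.3% of their summed TPM, with 16.3% in replicate 1 and 18.4% in replicate 2. The log2 ratio of Ehd2 over Ehd1 was -0.33 in replicate 1 and -0.08 in replicate 2, and its mean of -0.21 was close to its SD of 0.17. Ehd2 over Ehd4 was -1.84 ± 0.14 and Ehd2 over Ehd3 5.05 ± 0.32.

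The annotation lists 21 transcripts for the 8 genes. Cav3, Cavin2, Cavin3 and Cavin4 have 1 each. For the other 4 genes, the transcript with the largest share was the same in both hearts and in both quantifications. Cavin1-201, the coding transcript of Cavin1, held 93.8% ± 0.910 of its gene's TPM, Cav2-201 held 90.9% ± 1.38, and Ehd2-201 held 85.7% ± 0.821. Cav1-201 held 47.3% of Cav1 in replicate 1 and 52.6% in replicate 2. The second quantification gave these leading transcripts 92.4%, 75.8%, 100% and 37.9% in the same order. It gave 20.2% of Cav2 TPM to the short model Cav2-203, which had 2.27% in the first. That share rests on 63.3 of 1278 estimated counts in replicate 1 and 44.6 of 1613 in replicate 2, since TPM divides by length. Ehd2-202, a fragment of 375 bases with an incomplete end, had 14.3% of TPM in the first quantification and was at 0 in the second. Its share in the first rests on 45.1 of 5186 counts in replicate 1 and 58.05 of 6072 in replicate 2.

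Cav1 was divided between its start codons. Transcripts with the full frame (Cav1-201 and Cav1-205) held 52.0% of Cav1 TPM in replicate 1 and 57.2% in replicate 2 (54.6% ± 3.68), which is 45.4 and 49.5 TPM. Transcripts with only the short frame (Cav1-202 and Cav1-203) held 40.8% in replicate 1 and 38.2% in replicate 2 (39.5% ± 1.81), which is 35.6 and 33.1 TPM. The other 6 models held 5.90% ± 1.88. Both classes were thus well above the median level of expressed coding genes in each heart.

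Which class was higher depended on the quantification. The log2 ratio of full over short was 0.35 in replicate 1 and 0.58 in replicate 2 in the first, a mean of 0.47 ± 0.16. In the second it was -0.58 in replicate 1 and -0.37 in replicate 2, a mean of -0.47 ± 0.15, with 39.2% and 41.9% for the full frame and 58.5% and 54.0% for the short one. The difference between quantifications exceeded that between hearts, so the order of the classes is uncertain. Within the short class, Cav1-202 held 23.8% ± 3.56 and Cav1-203 held 15.7% ± 1.75 in the first quantification. Cav1-202 begins at 17307640, right after the downstream window printed above. In the second, Cav1-203, of 613 bases, held 21.8% of TPM from 225 of 6074 estimated counts in replicate 1 and 213 of 6449 in replicate 2. There Cav1-201 and Cav1-202 had 2818 and 2974 counts in replicate 1, and 3151 and 2992 in replicate 2, so their order by counts changed between the hearts. The RNA with the full frame also contains the internal ATG, so these shares count transcripts and not alpha and beta protein.

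**Figure D3:**
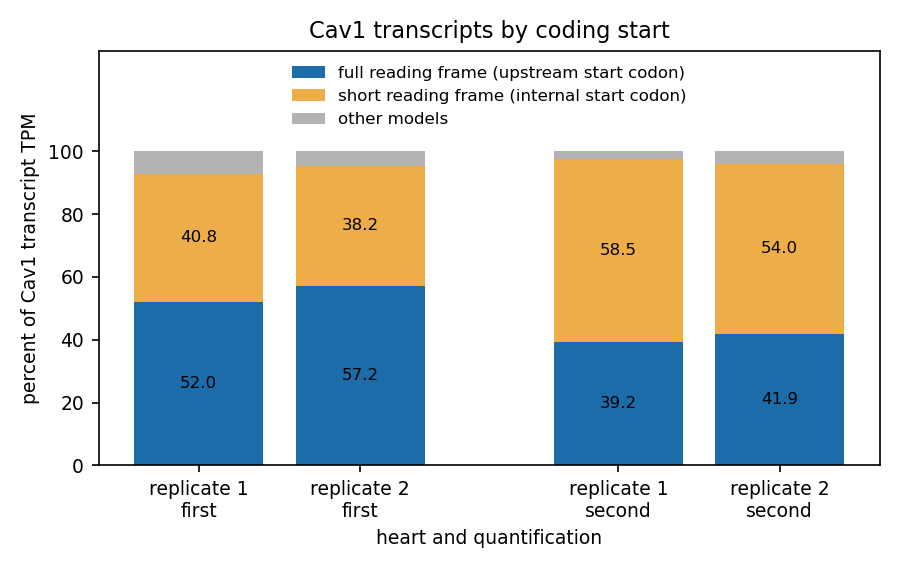
Percent of Cav1 TPM held by transcripts with the full reading frame, with only the short frame, and by other models, for each heart and quantification. The full frame holds 52.0% and 57.2% in the first quantification, and 39.2% and 41.9% in the second.

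Genes that act with caveolae or beside them were described in 4 lists of 20 genes. Of these, 18 reached 1 TPM in both hearts, against 49.5% of nuclear protein-coding genes. At the neck, Pacsin2 and Pacsin3, membrane-bending F-BAR proteins found at caveolae, were expressed. Pacsin2 stood at 71.43 TPM in replicate 1 and 76.85 TPM in replicate 2, and Pacsin3, the muscle form, at 45.95 and 47.62 TPM. Pacsin1, the neuronal form, was at 0.10 and 0.09 TPM. Filamin A, Flna, which ties CAV1 to actin, stood at 34.5 and 32.79 TPM, the kinase gene Abl1 at 11.51 and 10.66 TPM, and the receptor gene Ror1 at 3.47 and 3.48 TPM. The second quantification gave more to Pacsin2, 121 TPM in replicate 1 and 136 TPM in replicate 2, and to Abl1, 16.8 and 18.0 TPM, which is 1.74 and 1.57 times the first in the mean.

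Of the Popeye genes, whose cyclic AMP-binding proteins interact with CAV3, Popdc2 stood at 160.28 TPM in replicate 1 and 186.05 TPM in replicate 2. Bves stood at 12.46 and 15.11 TPM and Popdc3 at 9.14 and 9.56 TPM. In the second quantification Bves was 1.89 times as high, at 20.7 TPM in replicate 1 and 31.5 TPM in replicate 2. Nos3, the endothelial nitric oxide synthase that CAV1 holds inactive, stood at 8.36 and 8.62 TPM. The flotillins mark membrane domains apart from caveolae, with Flot1 at 50.06 and 50.36 TPM and Flot2 at 21.65 and 21.89 TPM.

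T-tubules are the membrane invaginations of muscle cells in whose formation CAV3 and BIN1 take part. Tcap, a titin cap gene, was the highest of that list at 375.33 TPM in replicate 1 and 387.84 TPM in replicate 2. The junctophilin gene Jph2 stood at 119.38 and 133.67 TPM, and the membrane repair gene Dysf at 35.02 and 39.57 TPM. The phosphoinositide phosphatase gene Mtm1 stood at 7.12 and 6.70 TPM. Bin1 was the lowest, at 2.83 and 2.79 TPM. The median TPM was 33.6 for the neck and accessory list, which holds Ehd1, Ehd3 and Ehd4, and 11.6 for the Popeye and Nos3 list. It was 36.0 for flotillins and 37.3 for T-tubule genes, against 39.1 for the 8 caveolar genes. In the second quantification these medians were 35.7, 19.5, 42.3 and 44.8 in the same order, against 48.9.

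**Figure D4:**
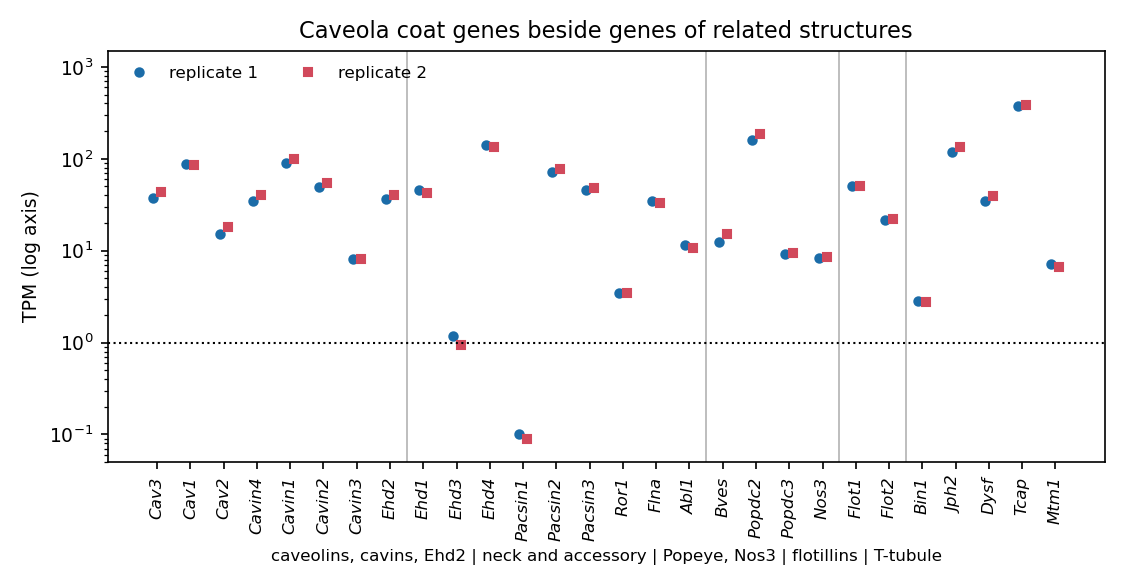
TPM of the 8 genes and of the 20 accessory genes in each heart on a log axis, with vertical lines between lists and a dotted line at 1 TPM. Circles are replicate 1 and squares replicate 2; Pacsin1 lies under 1 TPM in both hearts and Ehd3 in replicate 2 only.

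The hearts were then set against each other, as replicate 1 over replicate 2 of scaled counts, for the 12910 genes at a mean of 1 CPM (counts scaled to a fixed library total) or more. There is 1 library per heart, so these ratios have no replicate check, and their 95% intervals cover counting error only. None of the 8 genes differed by 2-fold, as 1.22% of the genes did. Their log2 ratios ran from -0.20 to 0.06, with a median of -0.10. The largest size among them was 0.196, and 69.1% of all genes had a log2 ratio of at most 0.196 either way. The median of all genes was -0.0025.

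Of the 8 genes, 6 were lower in replicate 1 and 2 were higher. Cav2 had a log2 ratio of -0.20 (-0.30 to -0.09), Cav3 -0.17 (-0.28 to -0.06) and Cavin4 -0.17 (-0.25 to -0.09). Cavin1 had -0.10 (-0.14 to -0.07), Cavin2 -0.10 (-0.15 to -0.04) and Ehd2 -0.08 (-0.14 to -0.03). Cavin3 had 0.02 (-0.17 to 0.22) and Cav1 0.06, with a lower limit of 0.0028. The intervals of 7 of the 8 left out 0, as did those of 33.1% of all genes. The width of an interval follows the counts, which lay between 411 and 11269 for the 8 genes. The 2 shares are not matched for counts. Other scalings shift every gene alike, and with them the sign of ratios near 0. Scaling by spike-ins moved the median of all genes to 0.13 and put 5 of the 8 genes above 0, among them Cavin1 at 0.03, Cavin2 at 0.04 and Ehd2 at 0.06, while library totals put all 8 below 0. Since the shift is the same for every gene, the place of the 8 relative to all genes cannot change and is not a further check. Their median was 0.036 against 0.13 for all genes with spike-ins, and -0.16 against -0.061 with library totals.

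**Figure D5:**
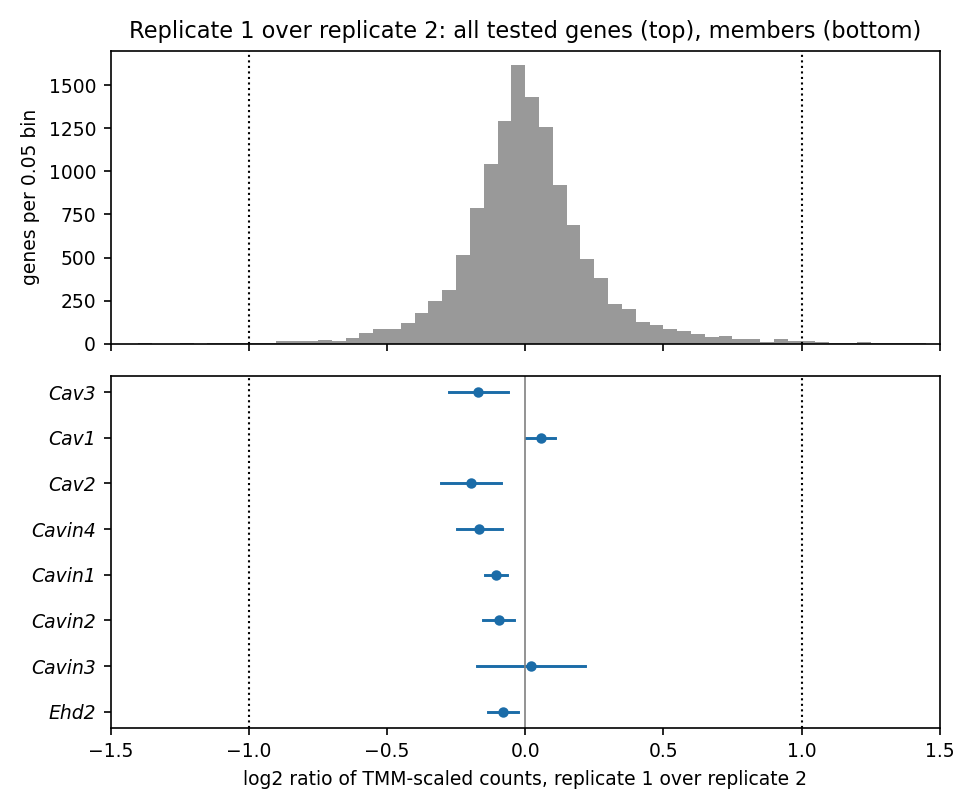
Log2 ratio of scaled counts, replicate 1 over replicate 2, as a histogram of all 12910 genes (top) and for the 8 genes with their 95% counting intervals (bottom). Dotted lines mark 2-fold; the 8 genes lie between -0.20 and 0.06.

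Marker lists of the cells that hold caveolae were set between the hearts in the same way. The 8 endothelial markers summed to 229.15 TPM in replicate 1 and 249.77 TPM in replicate 2. Their median log2 ratio was -0.11, with 0 of 8 at 2-fold, against 1.22% of all genes. The 4 pericyte markers summed to 110.84 and 128.14 TPM (median -0.18), and the 5 smooth muscle markers to 151.94 and 177.47 TPM, although their median ratio was 0.19. The 7 heart muscle markers had a median of -0.01. Fibroblast markers were higher in replicate 1, at 405.18 against 367.98 TPM (median 0.20).

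The adipocyte markers stood farthest apart, with a sum of 238.78 TPM in replicate 1 and 34.61 TPM in replicate 2. All 5 of them at 1 CPM or more were at least 2-fold higher in replicate 1, with log2 ratios from 1.97 to 3.03. Of all genes, 1.22% differed by 2-fold either way. Cfd, the adipsin gene, stood at 174.47 TPM in replicate 1 and 22.12 TPM in replicate 2. Red cell markers summed to 46562 TPM in replicate 1 and 23411 TPM in replicate 2 (median 1.02), and lung markers to 0.45 and 3.04 TPM. Macrophage markers summed to 56.05 and 53.89 TPM. The part of these cell types in the ratios of the 8 genes was not tested.

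Accessory genes also stayed within 2-fold between the hearts. None of the 19 at 1 CPM or more reached 2-fold, against a share of only 1.22% of all genes. Of the 19, 10 were higher and 9 lower in replicate 1, and their median log2 ratio was 0.0033. Bves was at -0.19 and Popdc2 at -0.17, Nos3 was at -0.0017, and Popdc3 was at -0.04, or 0.010 by the second quantification. Dysf was at -0.18, while Ehd1 (0.21), Ehd3 (0.39) and Mtm1 (0.16) were above 0.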

How the data were processed

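Total RNA-seq libraries of 2 hearts were analysed, labelled as 1 per animal and treated as such. Estimated counts and TPM per gene and transcript, each transcript's percent of its gene, and lower and upper bounds of TPM (read here as signal, since their level is not stated) were deposited by the authors. The first tables were derived from a transcriptome alignment and the second transcript table from a read file, with assembly mm10 and GENCODE M21, per the text files deposited with the samples. The sources used here do not name the tools or their settings. Rows of tRNAs and spike-ins (0.505% and 0.577% of counts) were left out of library sizes.

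Here, estimated counts were rounded and scaled by TMM (edgeR 4.0.16, R 4.3.3), with exact binomial 95% intervals. The floor of 3 counts, which a count of 0 allows, is 0.0784 CPM in replicate 1 and 0.0738 CPM in replicate 2. Without molecular identifiers PCR copies cannot be told from molecules, so intervals and floors cover counting error only. Alternatives were DESeq2 1.42.0 size factors, spike-in and total scaling, no filter, other pseudocounts, posterior mean TPM, counts without division by length, TPM over nuclear coding genes, the second quantification, and each heart alone. The TMM step was run on simulated counts with known changes, all upward in replicate 1. That checks the code and not the scaling between these hearts. Words of 31 bases were compared over GENCODE transcripts, and coding sequences were aligned with Biopython 1.88 in Python 3.11.15. Promoter windows are from RefSeq (GRCm38.p6), where 7 of the 8 genes matched, all but Cavin3. All 8 genes and 20 accessory genes are named, and markers only as the highest and lowest of a list. The genes and lists were chosen with earlier results of these data known.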

Additional observations from a re-analysis of the deposited data

How the results depend on the processing

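The signs of the 5 ratios of muscle over broad forms held under the alternatives run, though a changed pseudocount cannot reverse a sign. None of the 8 genes differed by 2-fold between the hearts under any alternative. The scalings and the filter could hardly have changed that. The largest log2 ratio was 0.196 in size, and the largest shift, by spike-ins, moved the median of all genes to 0.13. Without division by length, Cav3 over Cav1 was -2.02 and Cavin4 over Cavin1 -2.06 on the log2 scale, Cav3 over Cav2 shrank to 0.035, and 2 ratios changed sign, with Cav3 over Cavin4 at -0.79 and Ehd2 over Ehd1 at 0.67. The second quantification gave -1.45 for Cavin4 over Cavin1, 18.7% for the Cavin4 share and, with the sign reversed, -0.47 for full over short frames of Cav1. The cause was not tested. Taking each heart alone gave -1.23 to -1.01 for Cav3 over Cav1, -1.38 to -1.30 for Cavin4 over Cavin1, 26.6% to 29.1% for the Cav3 share, 19.0% to 19.9% for the Cavin4 share and 0.35 to 0.58 for the Cav1 frames.

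Without the filter on low counts, 4858 of 24638 genes differed by 2-fold between the hearts, against 157 of 12910 with it. The genes that the filter leaves out have a mean under 1 CPM, and a count of 0 was set to 3. Of the 157, 74.5% were higher in replicate 1, against 85.8% of the 197 genes that differed by 2-fold with spike-in scaling. Library totals put Cav1 at -0.0029, and spike-ins put Cavin1 at 0.032, Cavin2 at 0.041 and Ehd2 at 0.056. TPM over nuclear coding genes alone raised every level (Cavin1 to 255), since these genes held 37.8% and 36.7% of TPM. No paired analysis was possible because the labels give 1 group. For Cavin3, the gene with fewest counts, counting error was wider than the difference between the hearts.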
